A study of Mus musculus with 9 samples.

Results

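The E2F and DP transcription factors were followed in 9 libraries of RNA from the embryonic mouse forebrain. They are the 10 genes E2f1 to E2f8, Tfdp1 and Tfdp2, chosen by name from the 53379 Ensembl genes of the count tables through the GRCm38 annotation, and all 10 were expressed above the low-count filter. The cells were GFP-positive cells that flow cytometry sorted from forebrains of C57Bl6DBa2 embryos at E16.5 (embryonic days), and the labels call them neural progenitor cells. Plasmids had been delivered by in utero electroporation at E14.5, 2 days earlier. The GemC1 group received pCAGGS-GemC1, the Mcidas group received pCAAGS-Mcidas, and the GFP group received the H2B-GFP reporter and is the control. The labels do not say whether the factor groups also received H2B-GFP or whether factor and reporter lay on one plasmid, so the share of sorted cells that carried the factor is not known here. Each group held 3 libraries, and the labels do not say how many embryos each library pooled or whether the libraries came from separate litters. The p-values therefore measure the spread between these samples, which may be technical. In the GemC1 and Mcidas groups the factor named was delivered by plasmid, so the design tests its forced expression and not its natural level.

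E2F proteins bind DNA beside a DP partner (DP1 from Tfdp1, DP2 from Tfdp2) and govern genes of DNA replication and cell division. E2F1, E2F2 and E2F3 are known as activators that the retinoblastoma protein holds in check. E2F4 and E2F5 act with the related pocket proteins p107 and p130, mostly as repressors in resting cells. E2F6 represses through a Polycomb complex without pocket proteins, and the atypical E2F7 and E2F8 repress without any DP partner. GemC1 (gene Gmnc) and Multicilin (gene Mcidas) are geminin-related proteins that start the multiciliated cell fate. Neither is known to bind DNA by itself, and both are known to work by joining E2F4 or E2F5 with DP1 at the promoters of centriole and cilium genes.

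Of the 10 genes, 1 passed the test against GFP (edgeR adjusted p under 0.05) with each factor, where 3.86% of all genes passed it as higher with GemC1 and 4.03% with Mcidas. E2f7, a repressor of S-phase genes, rose 3.41-fold with GemC1 and 3.97-fold with Mcidas. The partners through which both factors are known to work, E2f4, E2f5 and Tfdp1, did not pass the test in either comparison. Their levels stood among the highest 4 of the family in every group, per exon length. With the longest transcript as the length, E2f5 left the highest 4 in every group. The activators E2f1, E2f2 and E2f3 and the other atypical gene, E2f8, did not pass it either.

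The promoters of the 2 atypical genes were compared by their exact motif matches. They are printed here because E2f7 passed the test and its close relative E2f8 did not. Each window holds 300 bases, from 250 before to 50 after the RefSeq transcription start (GRCm38.p6), 5′ to 3′ on the gene's strand, and capitals mark the only match to an E2F motif. E2f7 is at chr10:110745189-110745488 on the plus strand, E2f8 at chr7:48881547-48881846 on the minus strand.
E2f7: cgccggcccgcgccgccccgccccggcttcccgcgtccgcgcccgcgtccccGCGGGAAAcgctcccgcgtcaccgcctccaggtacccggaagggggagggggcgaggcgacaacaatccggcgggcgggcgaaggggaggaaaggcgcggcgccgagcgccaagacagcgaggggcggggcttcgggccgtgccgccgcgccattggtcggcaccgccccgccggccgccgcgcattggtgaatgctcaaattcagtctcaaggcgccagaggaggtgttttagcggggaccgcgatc
E2f8: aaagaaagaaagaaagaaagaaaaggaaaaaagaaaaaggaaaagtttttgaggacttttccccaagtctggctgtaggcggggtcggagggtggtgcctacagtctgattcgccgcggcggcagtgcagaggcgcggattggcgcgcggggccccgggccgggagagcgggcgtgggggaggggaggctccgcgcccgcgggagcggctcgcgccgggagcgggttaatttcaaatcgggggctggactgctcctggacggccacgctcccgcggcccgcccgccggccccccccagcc
The search took the letters TTTCCCGC, TTTCGCGC, TTTGGCGC and TTTGCCGC as E2F motifs, TTTGAA as the CHR (the cell cycle homology region through which the DREAM complex binds G2/M genes) and CCAAT as the CCAAT box, on both strands. No match in a member overlapped another match. E2f7 held 1 E2F match, GCGGGAAA, at bases -198 to -191 from the start, and 2 CCAAT boxes. E2f8 held no E2F match, 1 CHR at bases -20 to -15 and 1 CCAAT box. Only exact matches counted, and near matches occur in both windows, such as attggcgc in E2f8 and cttcccgc in E2f7. These differ from TTTGGCGC and TTTCCCGC in the first base alone. Of 32544 RefSeq promoter windows of this length, 2.28% held an E2F match, 17.8% a CHR and 37.4% a CCAAT box.

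Among the members with a RefSeq window, 8 in all, 4 held an E2F match: E2f2, E2f3, E2f7 and Tfdp1. In the first of its windows, E2f3 had the match next to the start, at bases -11 to -4, and E2f2 had it after the start, at bases 40 to 47. Both windows of Tfdp1 overlap and hold the same match, GCGCGAAA, at bases -43 to -36 from the first start. That window lies at chr8:13338501-13338800 on the plus strand, and the E2f3 window at chr13:29986014-29986313 on the minus strand. Both are shown because these genes carry a match as E2f7 does and did not pass the test.
E2f3: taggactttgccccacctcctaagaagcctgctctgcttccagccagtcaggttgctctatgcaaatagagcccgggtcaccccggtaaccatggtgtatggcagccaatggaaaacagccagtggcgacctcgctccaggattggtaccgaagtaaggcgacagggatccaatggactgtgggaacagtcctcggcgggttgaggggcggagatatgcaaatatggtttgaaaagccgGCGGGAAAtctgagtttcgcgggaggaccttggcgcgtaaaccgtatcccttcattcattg
Tfdp1: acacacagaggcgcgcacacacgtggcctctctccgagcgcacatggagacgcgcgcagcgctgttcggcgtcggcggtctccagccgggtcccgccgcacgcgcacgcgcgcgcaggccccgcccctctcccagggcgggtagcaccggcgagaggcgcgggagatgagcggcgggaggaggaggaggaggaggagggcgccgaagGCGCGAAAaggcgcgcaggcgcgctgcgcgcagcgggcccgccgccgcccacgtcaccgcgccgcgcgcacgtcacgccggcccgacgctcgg
E2f1, E2f6 and Tfdp2 held none of the 4 E2F motifs in their windows. The start of the E2f1 window lies 466 bases inside the annotated gene, and the starts of both Tfdp2 windows lie 62430 and 62973 bases inside it, so these windows leave out the outermost annotated start. The other E2f2 and E2f3 windows also start inside their genes. E2f4 and E2f5 had no window. A match is a string of letters, not a measured binding site, and a gene with no match may be bound outside these letters or this window.

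**Figure D1:**
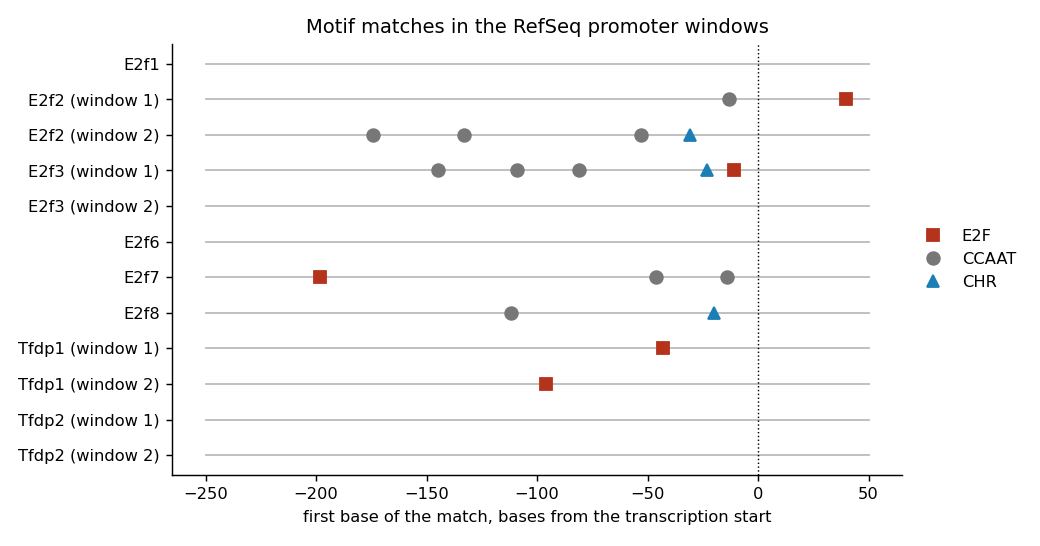
Matches to the E2F, CCAAT and CHR motifs in the promoter windows of the 8 members with a RefSeq entry. The x axis gives the first base of each match in bases from the transcription start, and each grey line is 1 window. E2f7 has its E2F match at -198, while E2f8 has a CHR and a CCAAT box and no E2F match.

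Some facts of the whole series bear on these genes. Total counts ran from 22914704 to 41163917 per library, so that 3 counts equal 0.0729 to 0.131 CPM (counts scaled to a common library size). Gmnc stood at 223 to 317 CPM in the GemC1 libraries, at 0 in all GFP libraries and at 0 to 0.26 CPM in the Mcidas libraries. Mcidas stood at 388 to 597 CPM in the Mcidas libraries, at 60.3 to 76.8 CPM in the GemC1 libraries and at 0.65 to 0.69 CPM in the GFP libraries. The libraries thus held the factor their labels name. The GemC1 libraries also held Mcidas transcript (6.71 ± 0.21 in log2 against GFP), so GemC1 against Mcidas does not compare each factor alone. The file names of the Mcidas libraries carry another year than those of the other groups. Should the year stand for a batch, its effect and that of Mcidas cannot be told apart. Genes were called at an edgeR quasi-likelihood adjusted p under 0.05 (Benjamini-Hochberg over 19572 genes), and log2 fold changes are given ± SE.

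E2f7 encodes an atypical repressor that E2F1 and p53 are both known to induce. The gene is protein-coding and spans chr10:110745439-110787384 on the plus strand (GRCm38, GENCODE M21). In the GFP libraries it stood at 25.4, 24.1 and 23.3 CPM. In the GemC1 libraries it stood at 78.2, 82.0 and 87.7 CPM, and in the Mcidas libraries at 79.2, 105.7 and 103.9 CPM. All 6 libraries with a factor lay above all 3 GFP libraries, with no overlap. The log2 fold change was 1.77 ± 0.12 for GemC1 against GFP (95% interval 1.52 to 2.02, edgeR adjusted p = 2.5e-06) and 1.99 ± 0.12 for Mcidas against GFP (1.74 to 2.24, edgeR adjusted p = 7.7e-07). Ranked by p among all genes tested, E2f7 came at place 15 and place 13. Both comparisons share the 3 GFP libraries, so they are not independent of each other.

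The direct test between the factors did not separate them at E2f7. GemC1 against Mcidas gave -0.22 ± 0.11 (95% interval -0.46 to 0.02, edgeR adjusted p = 0.43), and the CPM of these groups overlapped. Mcidas replicate 1 stood at 79.2 CPM, within the GemC1 range, and the other 2 Mcidas libraries stood above it. The same replicate was the lowest of its group in Foxj1, the master regulator of motile cilia, at 95.8 CPM against 170.2 and 183.3 CPM. It was also the lowest in Mcidas itself, at 387.5 CPM against 507.5 and 596.9 CPM. Not every gene called higher with Mcidas followed this order. Cdt1 stood at 142.1, 132.7 and 155.1 CPM in Mcidas, and Lig1 at 134.0, 128.0 and 124.8 CPM. Whether the levels of Mcidas and E2f7 are linked was not tested. E2f7 was called against GFP under all 16 alternative analyses in both comparisons.

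E2f8 encodes the closest relative of E2f7 and often acts beside it. It stood at 12.6, 12.2 and 9.69 CPM in GFP, at 13.5, 12.4 and 16.01 CPM in GemC1 and at 15.98, 16.3 and 11.6 CPM in Mcidas. Its groups overlapped in each comparison. The log2 fold changes were 0.28 ± 0.18 (95% interval -0.11 to 0.67) with GemC1 and 0.35 ± 0.18 (-0.04 to 0.73) with Mcidas, neither called (edgeR adjusted p = 0.42 and 0.48). Per length, the E2f7 level was 1.21, 1.19 and 1.45 times that of E2f8 in the GFP libraries. It was 3.49, 3.99 and 3.31 times that of E2f8 in GemC1 and 2.99, 3.92 and 5.41 times in Mcidas. The 6 libraries with a factor all lay above the GFP libraries in this ratio. An exact permutation test of the log2 count ratio gave p = 0.1 against GFP with each factor. That is the smallest p this test can give here, and its adjusted p was 0.15 over 12 tests. E2f7 was already called and E2f8 was not, so the ratio is no separate evidence.

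**Figure D2:**
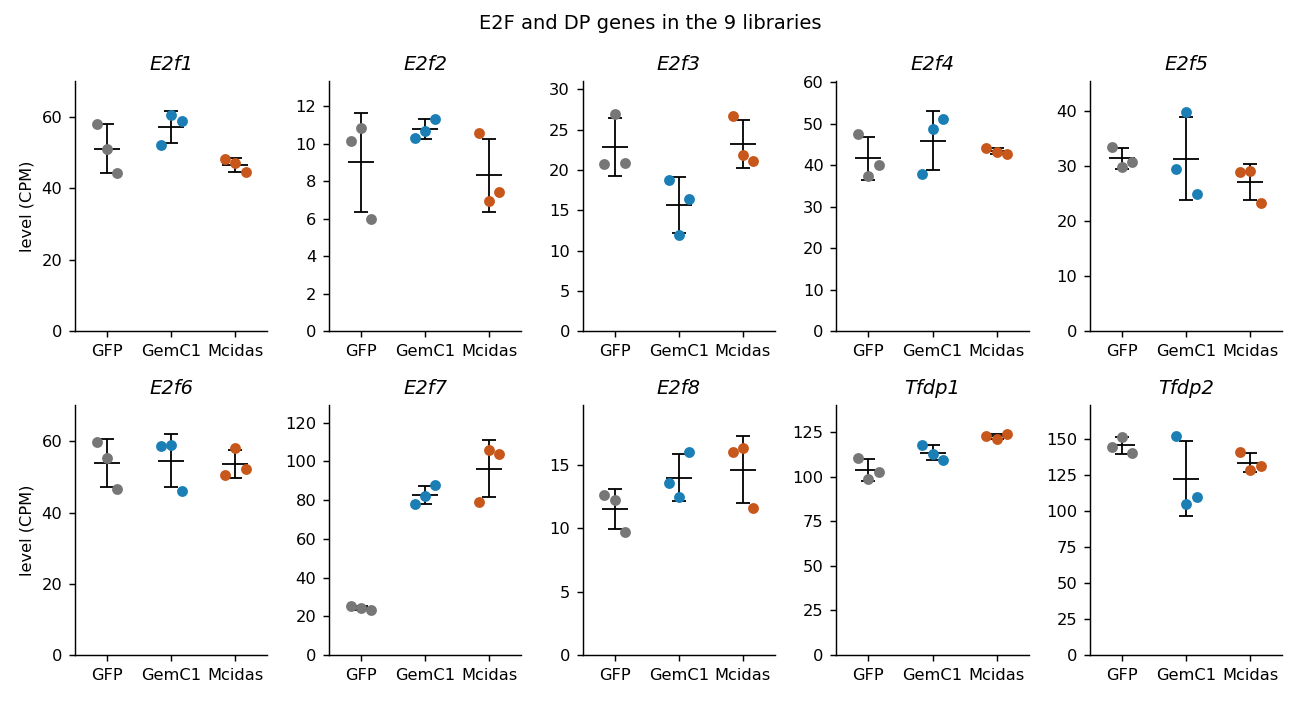
Level of each of the 10 genes in CPM (y axis from 0, a scale of its own for each gene) in the 3 libraries of each group. Points are libraries, and bars give mean ± SD (n = 3). In E2f7 the GFP libraries lie between 23.3 and 25.4 CPM and the others between 78.2 and 105.7 CPM.

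The call at E2f7 can be read against the share of all genes that were called. With GemC1, 1 of 10 members was called higher, beside 3.86% of all genes tested (756), and 0 were called lower, beside 1.32% (259). With Mcidas, 1 of 10 was called higher, beside 4.03% (788), and 0 were called lower, beside 0.327% (64). Between GemC1 and Mcidas 0 of 10 were called, beside 0.0511% (10 genes in either direction). At an unadjusted p under 0.05, 1 member was higher (E2f7) and 1 lower (E2f3) with GemC1. With Mcidas 2 were higher (E2f7 and Tfdp1) and 0 were lower. The share of all genes at that unadjusted level was not counted, but places by edgeR p among the 19572 genes bracket their number. It lay between 1792 and 4214 with GemC1, between 1828 and 2871 with Mcidas, and between 1991 and 2592 in GemC1 against Mcidas. The member counts at that level are therefore descriptions only. DESeq2 called E2f3 lower with GemC1, and with Mcidas it called 2 higher (E2f7 and Tfdp1) and 0 lower. Between the factors 1 was higher (E2f1) and 1 lower (E2f3) at that level, and DESeq2 called 0. Without GFP replicate 3 the genes called with GemC1 dropped to 443 higher and 32 lower, and the member count stayed at 1 higher and 0 lower.

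E2f3 encodes an activator known to act in the division of neural progenitors. It stood at 20.7, 26.9 and 20.8 CPM in GFP and at 26.7, 21.9 and 21.1 CPM in Mcidas. In GemC1 it stood at 18.8, 11.9 and 16.4 CPM, below all libraries of the other groups. The log2 fold change of GemC1 against GFP was -0.54 ± 0.18 (95% interval -0.93 to -0.15), which edgeR did not call (adjusted p = 0.11). DESeq2 called it (adjusted p = 0.046), and so did edgeR with no low-count filter (adjusted p = 0.030). GemC1 against Mcidas gave -0.57 ± 0.18 (edgeR adjusted p = 0.22), also not called. GemC1 replicate 2 was the lowest library, and without it the value against GFP was -0.37 (edgeR adjusted p = 0.27). These gene-level values cannot show the isoforms of E2f3, which start at different promoters and differ in function.

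E2f1, the activator best known for inducing both S phase and cell death, stood at 58.1, 51.0 and 44.4 CPM in GFP. It stood at 52.1, 60.5 and 59.0 CPM in GemC1 and at 48.3, 47.0 and 44.5 CPM in Mcidas, so that both factor groups overlapped GFP. The GemC1 libraries lay above the Mcidas libraries without overlap, at 0.30 ± 0.11, which edgeR did not call (adjusted p = 0.29). E2f2, the third activator and one of the lowest members, stood at 6.0 to 10.9 CPM in GFP, 10.3 to 11.3 CPM in GemC1 and 6.97 to 10.6 CPM in Mcidas. Its intervals were wide, from -0.25 to 0.77 with GemC1 and from -0.62 to 0.39 with Mcidas.

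E2f4, the E2F that Multicilin is best known to bind, stood at 47.5, 37.4 and 40.1 CPM in GFP. It stood at 37.8, 48.8 and 51.1 CPM in GemC1 and at 44.3, 43.3 and 42.8 CPM in Mcidas. The groups overlapped in each comparison. Its log2 fold changes were 0.14 ± 0.13 (95% interval -0.13 to 0.42) with GemC1 and 0.06 ± 0.13 (-0.21 to 0.34) with Mcidas. A rise of E2f4 transcript above 1.34-fold with GemC1 or 1.26-fold with Mcidas thus lay outside the intervals.

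E2f5, which shares that role and whose loss in mice is known to cause hydrocephalus, stood at 33.5, 29.8 and 30.8 CPM in GFP. It stood at 29.4, 39.7 and 24.9 CPM in GemC1, where the libraries spread widely around the GFP range. In Mcidas it stood at 28.8, 29.0 and 23.3 CPM, just below all GFP libraries. The log2 fold changes were -0.21 ± 0.16 with Mcidas (95% interval -0.56 to 0.14, edgeR adjusted p = 0.70) and 0.00 to 2 decimals with GemC1 (-0.35 to 0.35). An exon of E2f5 overlaps one of 1810022K09Rik on the opposite strand by 26 bases, and without strand the reads of this stretch cannot be told apart.

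Tfdp1 encodes DP1, the partner that most E2Fs share. It stood at 110.4, 98.5 and 102.6 CPM in GFP, at 118.0, 112.7 and 109.5 CPM in GemC1 and at 123.1, 121.2 and 123.8 CPM in Mcidas. The Mcidas libraries lay above all others. The log2 fold change of Mcidas against GFP was 0.24 ± 0.08 (95% interval 0.08 to 0.40), not called by edgeR (adjusted p = 0.13) and called by DESeq2 (adjusted p = 0.020). GemC1 against GFP gave 0.13 ± 0.08 (edgeR adjusted p = 0.39).

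Tfdp2, which encodes the other DP partner, stood at 144.2, 151.6 and 140.4 CPM in GFP and at 141.0, 128.6 and 131.0 CPM in Mcidas. In GemC1 it stood at 152.3, 104.8 and 109.7 CPM, with replicate 1 above all GFP libraries and the other 2 below them. Its log2 fold change with GemC1 was -0.25 ± 0.12 (edgeR adjusted p = 0.28). Without GemC1 replicate 1 it was -0.43 and was called (edgeR adjusted p = 0.017). E2f6, the Polycomb-linked repressor, stood at 46.6 to 59.8 CPM in GFP, 46.1 to 59.0 CPM in GemC1 and 50.6 to 58.0 CPM in Mcidas. Its log2 fold changes were 0.02 ± 0.12 and -0.01 ± 0.12, among the smallest of the family.

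The groups did not overlap in CPM at 2 members with GemC1 against GFP (E2f3 and E2f7), where 24.9% of all genes did not. They did not overlap at 3 members with Mcidas against GFP (E2f5, E2f7 and Tfdp1), where 19.5% of all genes did not. Between GemC1 and Mcidas there were 3 such members (E2f1, E2f3 and Tfdp1), beside 16.7% of all genes. The median log2 fold change over the 10 members was 0.13 with GemC1 and 0.01 with Mcidas, and over all genes tested it was -0.00 and -0.03. The 9 members not called ranged from -0.54 to 0.28 with GemC1 and from -0.21 to 0.35 with Mcidas.

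**Figure D3:**
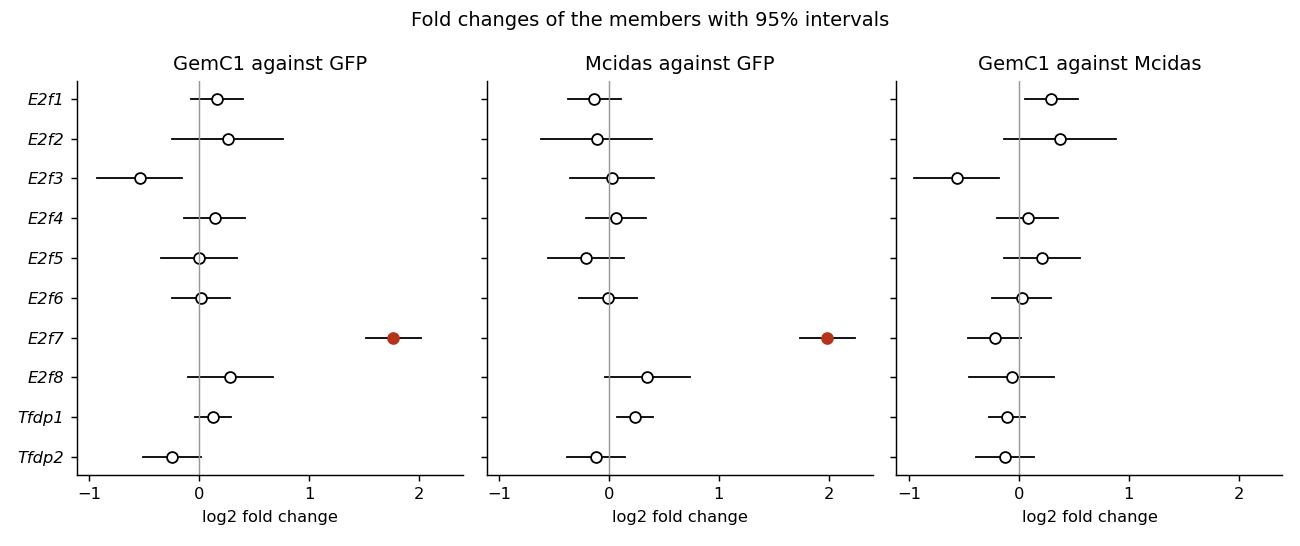
Log2 fold change of each member (x axis) in the 3 comparisons, with 95% intervals from the edgeR fit. Filled points passed the adjusted p threshold of 0.05. E2f7 stands at 1.77 and 1.99 against GFP, and the E2f3 interval lies below 0 in both comparisons of GemC1 without passing the threshold.

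Levels of different genes were compared per length, as TPM (counts divided by the exon length of each gene and scaled to a common sum). In GFP, Tfdp1 led at 98.1 ± 5.2 TPM (SD, n = 3). E2f5 (61.0 ± 3.5), E2f4 (58.9 ± 7.0) and E2f1 (56.3 ± 8.2 TPM) followed, with ranges that overlapped from one to the next. Tfdp2 (36.0 ± 2.4) and E2f6 (33.1 ± 4.6 TPM) overlapped each other and lay below those 3. E2f3 (14.6 ± 2.7 TPM) and E2f7 (9.33 ± 0.53 TPM) came next, each apart from its neighbours. E2f8 (7.35 ± 1.2) and E2f2 (6.43 ± 2.0 TPM) overlapped at the bottom.

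In the factor groups E2f7 moved up the order. With GemC1 it stood at 31.5 ± 2.0 TPM, in place 6 where GFP had it in place 8, and overlapped E2f6 (33.1 TPM) above it and Tfdp2 (29.9 TPM) below it. With Mcidas it stood at 38.3 ± 6.1 TPM in place 5, below E2f1 (52.9 TPM) and overlapping Tfdp2 (34.1 TPM). E2f1, E2f4 and E2f5 also changed places, mostly with ranges that overlapped. E2f4 stood at 64.4 ± 10.3 TPM with GemC1 and 63.5 ± 1.4 TPM with Mcidas, in place 2 of both. Tfdp1 led every group, at 106.2 ± 3.4 TPM with GemC1 and 119.8 ± 0.24 TPM with Mcidas. The order depends on the length used. With the longest transcript of each gene in place of all its exons, E2f5 dropped from place 2 to place 6 in GFP. It then stood at place 5 with GemC1 and place 7 with Mcidas, while E2f7 took places 8, 7 and 5.

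**Figure D4:**
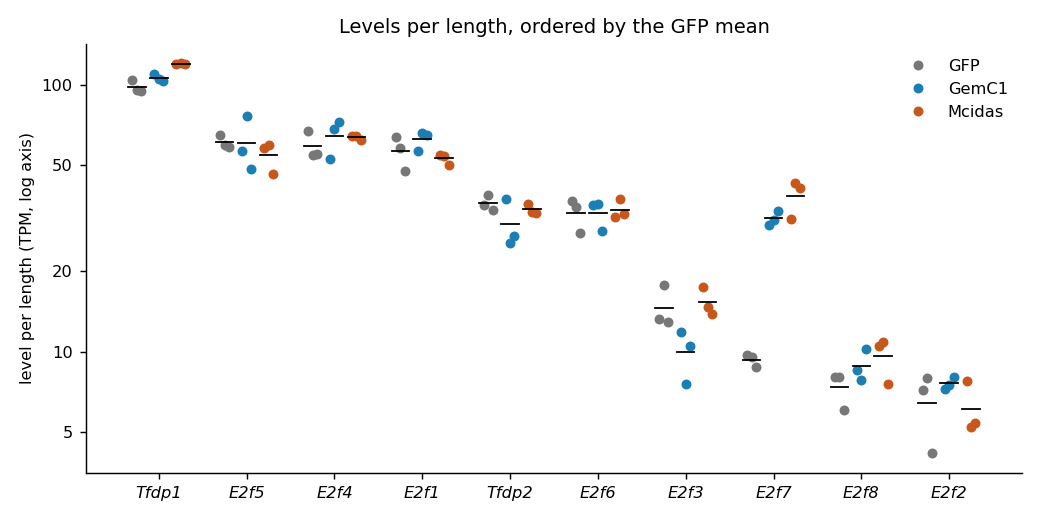
TPM of the 10 genes on a log axis, ordered by the GFP mean, with 1 point per library and a line at the mean of each group (n = 3). E2f7 stands between 8.74 and 9.74 TPM in GFP and between 29.7 and 42.7 TPM with a factor, level with E2f6 and Tfdp2.

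Seen as a share of the summed TPM of E2f1 to E2f8, the atypical repressors held 6.76 ± 0.23% in GFP (SD, n = 3). They held 14.6 ± 1.5% with GemC1 and 17.5 ± 2.0% with Mcidas, and neither range overlapped that of GFP. E2f7 alone held 3.79% in GFP, 11.4% with GemC1 and 14% with Mcidas. The activators held 31.2 ± 2.1%, 28.8 ± 1.7% and 27.1 ± 1.7% in the same order, and E2f4 with E2f5 held 48.6 ± 2.9%, 44.7 ± 3.1% and 43.0 ± 1.2%. A share falls where another rises, so these values are descriptions and were not tested.

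The genes around E2F were counted in lists of known function. Over all genes tested, 3.86% were called higher with GemC1 and 4.03% with Mcidas. Counts at an unadjusted p under 0.05 have no such share beside them and are descriptions only. Of the 3 pocket proteins that hold E2F in check (Rb1, Rbl1 and Rbl2), edgeR and DESeq2 called 0, and 0 had an unadjusted p under 0.05. Rb1 stood at 184.1 to 200.7 CPM in GFP, 157.0 to 204.4 CPM in GemC1 and 181.6 to 242.7 CPM in Mcidas. Of 8 G1 cyclins and kinases that free E2F, edgeR and DESeq2 called 0, while 1 had an unadjusted p under 0.05 with GemC1 and 3 with Mcidas. Ccnd1, the D-type cyclin that opens G1, had log2 fold changes of 0.12 ± 0.15 and -0.24 ± 0.15, and Ccne1, the E-type cyclin of S-phase entry, 0.33 ± 0.17 and 0.25 ± 0.17. Of 4 ubiquitin ligase parts that turn E2F proteins over, both tools called 0, with 0 and 1 at an unadjusted p under 0.05.

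Among 7 CDK inhibitors, 6 were tested and 1 was called, higher with both factors. Cdkn1a encodes p21, a p53 target that stops the kinases which free E2F. It stood at 4.23, 3.12 and 2.58 CPM in GFP, at 50.4, 33.5 and 46.3 CPM in GemC1 and at 37.1, 56.6 and 65.3 CPM in Mcidas. The log2 fold changes were 3.71 ± 0.25 and 3.998 ± 0.253 (edgeR adjusted p = 3.2e-06 and 1.5e-06). The other 5 ranged in log2 fold change from -0.22 to 0.20 with GemC1 and from -0.35 to 0.77 with Mcidas, and edgeR called none. At an unadjusted p under 0.05 the list held 1 gene with GemC1 and 2 with Mcidas, Cdkn1a in both and Cdkn1b, which encodes p27, with Mcidas (-0.35 ± 0.14). The median of the list was 0.09 with GemC1 and 0.03 with Mcidas.

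Among 55 genes of the G1/S transition that E2F is known to drive, 5 rose and 0 fell with GemC1, and 7 rose and 0 fell with Mcidas. At an unadjusted p under 0.05 there were 9 and 20 in either direction. The median log2 fold change of the list was 0.12 and -0.08. Places by edgeR p among the 19572 genes tested bracket how many of all genes reached that unadjusted level. With GemC1, E2f3 at place 1792 reached it and Pcna at place 4214 did not. With Mcidas, Mcm2 at place 1828 reached it and Rbl2 at place 2871 did not. Whether the list exceeds the share of all genes at that level was not tested. Cdt1, which licenses replication origins and is bound by geminin, rose from 29.7, 27.9 and 18.3 CPM in GFP to 66.5, 66.5 and 72.4 CPM with GemC1 and 142.1, 132.7 and 155.1 CPM with Mcidas. Dtl, a part of the ligase that degrades Cdt1 in S phase, rose by 0.78 ± 0.09 and 0.93 ± 0.09. Slbp, which binds histone transcripts, rose by 0.72 ± 0.09 and 0.95 ± 0.09, and Lig1, the replicative DNA ligase, by 0.51 ± 0.10 and 0.996 ± 0.098. Pola2 also rose in both, and Mcm3 and Hells with Mcidas, these 3 named after their values were seen. The other list members had no call, among them Mcm2 (0.14 ± 0.10 and 0.26 ± 0.10), Pcna (0.22 ± 0.11 and 0.02 ± 0.11) and Ccna2 (-0.14 ± 0.10 and -0.35 ± 0.10). DESeq2 called 8 higher and 1 lower with GemC1, and 8 higher and 3 lower with Mcidas. Without Mcidas replicate 1, edgeR also called 3 lower with Mcidas. With no low-count filter, edgeR called 8 higher and 1 lower with GemC1, and 3 lower with Mcidas. The replicate block gave 1 lower with Mcidas, and the fit without Mcidas replicate 3 gave 1 lower with GemC1. Ccna2 was called lower with Mcidas by DESeq2 (adjusted p = 0.036) and by edgeR with no low-count filter (adjusted p = 0.022).

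Those calls can be set beside the motif search. Of the 43 genes of the G1/S list with a promoter window, 20 held an E2F match, which is 46.5%, beside 2.63% of all genes with a window. Of the 5 called with GemC1, 3 held one (Cdt1, Dtl and Lig1), and of the 7 called with Mcidas, 5 did. Of the 25 genes of the G2/M list with a window, 1 held an E2F match and 19 a CHR. Of 12 genes with a window in the list of Multicilin targets, 0 held one of these 4 E2F motifs.

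G2/M genes that the DREAM complex (E2F4 or E2F5 with DP, p107 or p130 and MuvB) is known to repress were mostly without a call. Of 30 such genes, 1 rose with GemC1 and 1 with Mcidas, and 0 fell in either, with 6 and 2 at an unadjusted p under 0.05 in either direction. The median was 0.11 with GemC1 and 0.01 with Mcidas. Cdk1, the mitotic kinase, rose from 75.8, 63.9 and 52.3 CPM in GFP to 95.8, 95.1 and 100.5 CPM with GemC1. Its log2 fold change was 0.60 ± 0.15 (edgeR adjusted p = 0.041). That call was lost in 7 of 16 alternatives, among them the fits without GFP replicate 2 or 3, without Mcidas replicate 2 and without each GemC1 replicate. Nek2, a centrosome kinase, rose by 0.88 ± 0.19 with Mcidas (edgeR adjusted p = 0.017). This call was lost in 5 of 16, among them the fits without Mcidas replicate 2 or 3 and without GFP replicate 1 or 3. With the other factor neither gene was called by edgeR. Cdk1 had 0.54 ± 0.15 with Mcidas (edgeR adjusted p = 0.079) and Nek2 0.58 ± 0.19 with GemC1 (edgeR adjusted p = 0.11). GemC1 against Mcidas gave 0.06 ± 0.15 for Cdk1 and -0.29 ± 0.19 for Nek2, neither called. DESeq2 called 2 genes of the list higher with each factor, Cdk1 and Nek2. The proliferation marker Mki67 had -0.18 ± 0.15 with GemC1 and -0.16 ± 0.15 with Mcidas. Its level was 114.8 to 145.8 CPM in GFP, 87.3 to 131.2 CPM in GemC1 and 99.1 to 135.5 CPM in Mcidas.

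Genes that E2F4 or E2F5 with DP1 and Multicilin are known to activate were mostly called. Of 13 such genes, 10 rose and 0 fell with GemC1, and 10 rose and 0 fell with Mcidas, with medians of 2.27 and 2.68. At an unadjusted p under 0.05 there were 11 and 10. Over all genes tested, 3.86% were called higher with GemC1 and 4.03% with Mcidas. This list was chosen with earlier results of these data known, so its counts are descriptions only. Foxj1 stood at 0.51 to 1.52 CPM in GFP, 99.6 to 139.9 CPM in GemC1 and 95.8 to 183.3 CPM in Mcidas. Trp73, which encodes p73, stood at 0.24 to 1.33 CPM in GFP, 112.2 to 173.3 CPM in GemC1 and 112.9 to 146.6 CPM in Mcidas. Ccno, the cyclin of centriole amplification, rose by 4.79 ± 0.25 and 5.12 ± 0.25. Deup1, the scaffold of the deuterosome on which centrioles multiply, stood at 0 to 0.32 CPM in GFP. It stood at 62.8 to 73.4 CPM in GemC1 and 57.2 to 167.6 CPM in Mcidas. The 3 members without a call were Sass6, Rfx3 and Ccdc78, the same in both comparisons.

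Myb stands in that list and among the 8 genes of the MuvB core and its Myb partners, where it alone was called. It encodes a transcription factor that promotes early multiciliated cell differentiation. It stood at 6.94, 8.30 and 7.95 CPM in GFP and at 37.5, 47.1 and 45.0 CPM in GemC1. In Mcidas it stood at 48.6, 52.7 and 67.2 CPM. The log2 fold changes were 2.48 ± 0.15 and 2.86 ± 0.15 (edgeR adjusted p = 1.6e-06 and 4.6e-07). Mybl2, the partner of MuvB in cycling cells, had -0.05 ± 0.14 and -0.44 ± 0.14, neither called.

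Of 12 genes of the Polycomb complex PRC1.6 that holds E2F6, edgeR called 0, with 2 at an unadjusted p under 0.05 in each comparison, and DESeq2 called 1 lower with GemC1. Of 8 germline genes that E2F6 is known to repress, 1 (Stag3) passed the low-count filter. It stood at 5.75 to 7.11 CPM in GFP, 7.04 to 9.37 CPM in GemC1 and 8.57 to 13.1 CPM in Mcidas. EdgeR did not call it, and DESeq2 called it higher with Mcidas. Each of the other 7 stayed at or below 0.88 CPM in every library.

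**Figure D5:**
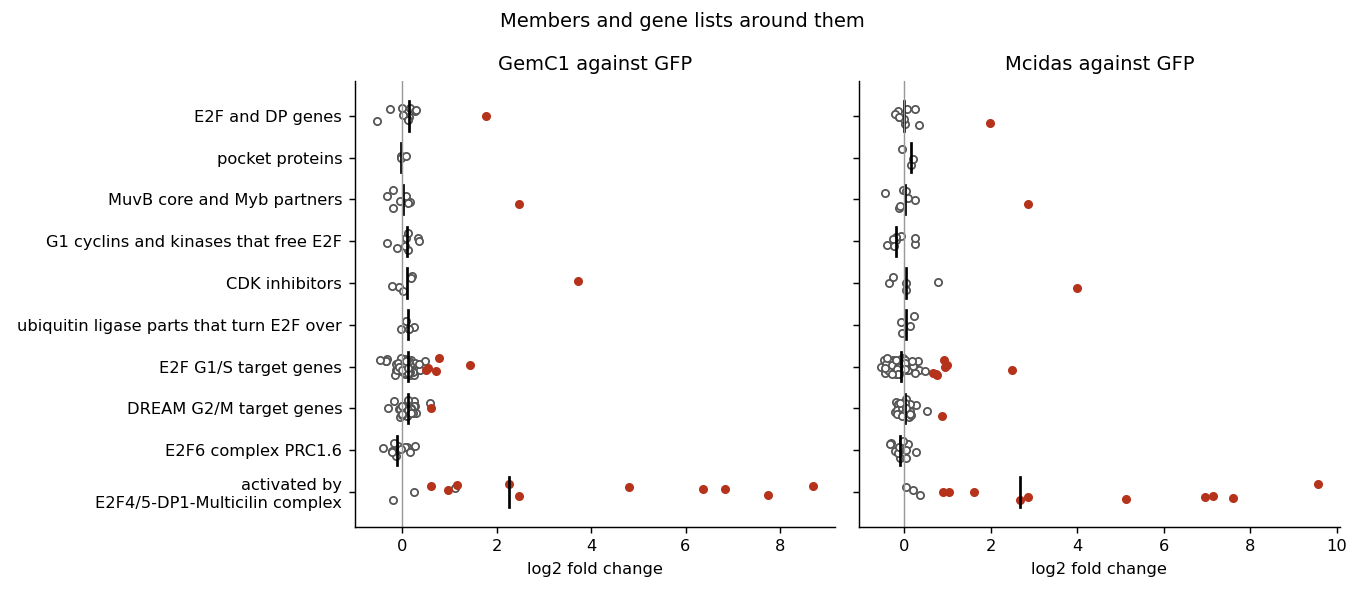
Log2 fold change (x axis) of the 10 members and of the genes of 9 lists around them, against GFP, with 1 point per gene and a bar at the median. Filled points passed the edgeR adjusted p threshold of 0.05. The Multicilin targets have medians of 2.27 and 2.68, while the G1/S list has medians of 0.12 and -0.08.

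The genes whose pattern across the 9 libraries was most like that of E2f7 were sought among 11716 genes whose log2 CPM averaged 1 or more. They were Cdc20b (Pearson r = 0.998 on log2 CPM), whose introns hold microRNAs of multiciliated cells, Ttc21a (r = 0.998) and Wdr63 (r = 0.998), both known from cilia. Mean CPM in GFP, GemC1 and Mcidas were 0.242, 20.2 and 30.4 for Cdc20b. They were 0.0756, 8.16 and 11.2 for Ttc21a, and for Wdr63 15.2 and 26.0 beside 0 in all GFP libraries. The 9 libraries form 3 groups, so this likeness describes mostly the gap between GFP and the factor groups, and no p is given.

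Markers of some other cell types also differed between GFP and the factor groups. Over all genes tested, 3.86% were called higher and 1.32% lower with GemC1, and 4.03% and 0.327% with Mcidas. Of 10 microglia and macrophage markers, 7 rose with GemC1 and 2 with Mcidas, and none was at 0 in all libraries. Their summed level ran from 21.1 to 30.5 CPM in GFP, from 49.4 to 81.3 CPM in GemC1 and from 33.3 to 52.9 CPM in Mcidas. Of 7 multiciliated cell markers, of which 3 are also in the list of Multicilin targets, 7 rose with each factor, from a summed 7.08 to 8.55 CPM in GFP to 332.9 to 380.1 CPM and 311.3 to 677.9 CPM. Of 7 neuron markers 2 fell with GemC1, as did 1 of 5 intermediate progenitor markers, and 1 of 8 radial glia markers fell with Mcidas. Of 5 endothelial markers 4 were tested and edgeR called 0, with 1 at an unadjusted p under 0.05 with GemC1 and 0 with Mcidas. They summed to 0.96 to 2.16 CPM in GFP, 0.066 to 0.47 CPM in GemC1, below all GFP libraries, and 0.58 to 4.26 CPM in Mcidas. These sums rest on few reads: in GemC1 replicate 3, at 0.066 CPM, 3 counts equal 0.099 CPM. Of 5 erythroid markers 4 were tested and edgeR called 0, again with 1 and 0 at an unadjusted p under 0.05. They summed to 12.6 to 18.7 CPM in GFP, 2.86 to 15.4 CPM in GemC1 and 1.58 to 26.6 CPM in Mcidas, where replicate 1 was the lowest. The part of these cell types in the change of E2f7 was not tested. Radial glia markers summed to 847 to 1095 CPM in GFP and neuron markers to 4614 to 5260 CPM, so the sorted cells held transcripts of progenitors and of neurons. In such bulk samples, more cells of a type and more RNA per cell cannot be told apart.

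Some members share sequence with genes on the other strand, and the kits named in the labels do not mark strand. E2f7 overlaps the antisense gene 1700020G17Rik by 86 exon bases, and over all libraries that gene had 311 counts and E2f7 18545. E2f8 overlaps Gm2788 by 610 exon bases, with 753 counts beside 3846 for E2f8.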

How the data were processed

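RNA of 9 libraries in 3 groups was measured by RNA-seq. SMART-Seq v4 cDNA from 10 ng RNA went into Nextera XT libraries read for 75 bp, per the labels' protocols. The values the authors deposited are raw counts of reads per Ensembl gene. STAR 2.5.2b, HTSeq 0.5.3, DESeq2 1.8.1 and mm10 are named in the submitters' processing notes, and the strand setting is not given in the sources used here. Identifiers were matched to GENCODE M21 (53274 of 53379), and the rest took at most 0.068% of a library. No interval of counting error alone is given, because amplified reads are not independent molecules. The intervals printed here come from the edgeR fit, which takes in the spread between the libraries of a group.

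Low genes were removed with filterByExpr (count minimum 10, total minimum 15), and counts were scaled by TMM and tested two-sided with edgeR 4.0.16 in R 4.3.3, with all 9 libraries in one quasi-likelihood fit. Alternatives were DESeq2 size factors, DESeq2 1.42.0, the low-count filter dropped or made stricter (1 CPM in 3 samples), the replicate number as a block, only the groups compared, counts without mitochondrial, globin and introduced genes, and the removal of each library. TPM used the union of exons. No pair of replicates agreed within sampling noise (chi-square over degrees of freedom 14.1 to 25.8).

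The text names all members, Gmnc and Mcidas, the 4 called genes of each list around E2F (cell type marker lists aside) with the smallest adjusted p, 15 genes whatever their p, and the 3 genes most like a called member. Cdkn1b, Mybl2, Stag3, Sass6, Rfx3 and Ccdc78 were named after their values were seen. Members and lists were chosen with earlier results of these data known. All 195 list genes were matched. Promoter sequences are from RefSeq (GRCm38.p6).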

Additional observations from a re-analysis of the deposited data

Results flagged for a closer look

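Cdt1, a G1/S target of E2F, differed between the factors by the direct test of GemC1 against Mcidas, with a log2 fold change of -1.065 ± 0.145 (edgeR adjusted p = 0.023). All 3 GemC1 libraries (66.5 to 72.4 CPM) lay below all 3 Mcidas libraries (132.7 to 155.1 CPM). The call was lost in 6 of 16 alternatives: with the replicate number as a block, without each GemC1 replicate and without Mcidas replicate 2 or 3. The highest adjusted p among the alternatives was 0.115. Whether the separate year of the Mcidas file names has a part in this cannot be told apart from the factor.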

How the results depend on the processing

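E2f7 was called against GFP under all 16 alternatives, with log2 fold changes of 1.72 to 1.81 (GemC1) and 1.91 to 2.12 (Mcidas), and with edgeR adjusted p up to 6.9e-05. DESeq2 called 1 member lower with GemC1 and 2 higher with Mcidas, and edgeR with no low-count filter called 1 lower with GemC1. Over all genes, DESeq2 called 1154 higher and 663 lower with GemC1, 127 lower with Mcidas, and 196 higher and 298 lower in GemC1 against Mcidas. With no low-count filter these were 557 lower with GemC1, 123 lower with Mcidas, and 66 and 129 in GemC1 against Mcidas. The replicate block gave 147 lower with GemC1 and 3 lower in GemC1 against Mcidas, where the fit of only the groups compared gave 2 and the fit without mitochondrial, globin and introduced genes gave 3. Same-numbered libraries did not deviate together (correlations from -0.074 to 0.046), so the block is no pairing, and it changed the call of no member. Not every library correlated best with its own number.

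Without each replicate in turn, the genes called with GemC1 ran from 443 to 877 higher and from 32 to 267 lower. With Mcidas they ran from 29 to 99 lower, and in GemC1 against Mcidas from 3 to 5 higher and from 1 to 8 lower. The members called lower with GemC1 ran from 0 to 1. Values near 0 changed sign. E2f5 with GemC1 was 0.0036 with DESeq2 size factors and with DESeq2, 0.0040 with the stricter filter and 0.0059 with only the groups compared. E2f6 with Mcidas was 0.0061 with both DESeq2 settings, 0.011 with the stricter filter and 0.0016 with only the groups compared.

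Log2 fold changes without each replicate in turn crossed 0 for these. With GemC1, E2f5 ran from -0.20 to 0.14, E2f6 from -0.076 to 0.12, Ccnd1 from -0.0020 to 0.19, Rb1 from -0.094 to 0.091 and Rbl1 from -0.064 to 0.038. With Mcidas, E2f2 ran from -0.33 to 0.054, E2f3 from -0.078 to 0.18, E2f6 from -0.098 to 0.078, Pcna from -0.014 to 0.076 and Rbl1 from -0.16 to 0.034. In GemC1 against Mcidas, E2f4 ran from -0.0049 to 0.20, E2f5 from -0.0023 to 0.35, E2f6 from -0.037 to 0.14 and E2f8 from -0.21 to 0.017. With the longest transcript as the length, the atypical share was 8.50% in GFP, 18.3% with GemC1 and 21.6% with Mcidas. The cause of these shifts was not tested.

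With 3 libraries a group, the 95% intervals of the members not called reach from -0.93 to 0.77 with GemC1 and from -0.62 to 0.73 with Mcidas, and changes of such sizes in single members remain possible.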
